A study of Homo sapiens with 22 samples.

Results

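The genes described here are 30 enzymes that build, salvage and interconvert purine and pyrimidine nucleotides. They were taken by gene symbol from the deposited table of 60240 genes, with 1 table entry for each symbol. RNA was polyA-selected and sequenced from haematopoietic progenitor cells (HPCs) that had been differentiated from H1 cells, a widely used line of human embryonic stem cells. The study compared HPCs in which doxycycline switched on ectopic MYC (DOX, collected at 2-day steps of culture from day 12 to day 20) with HPCs that received no doxycycline and had no ectopic MYC expression (UT, at the same steps from day 10 to day 20). Each of the 11 combinations of arm and day had 2 libraries, which gave 10 DOX and 12 UT libraries, all under 1 batch label. The labels do not say whether the 2 libraries of a group came from separate cultures, so every p-value rests on the spread between libraries that may be technical replicates. The promoter behind the transgene, the number of clones and the day of doxycycline addition are not given in the labels. No group analysed here received doxycycline without inducible MYC, so an effect of the drug itself cannot be told apart from that of MYC.

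Purine nucleotides are assembled stepwise on phosphoribosyl pyrophosphate (PRPP), an activated ribose phosphate, until inosine monophosphate (IMP) is reached, from which separate branches lead to adenine and guanine nucleotides. Pyrimidines are made the other way round: the ring, begun by the trifunctional protein CAD, is completed before it is joined to PRPP, which yields uridine monophosphate and from it the cytidine and thymidine nucleotides. Salvage enzymes recover free bases and nucleosides instead. MYC is a transcription factor that binds DNA with MAX at E-box sequences, and nucleotide synthesis genes are among its long-known targets in dividing cells.

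Because MYC with MAX prefers the palindromic E-box CACGTG, the RefSeq promoter windows of GRCh38.p14 (250 bases before to 50 after an annotated start) were searched for those 6 letters, which read the same on both strands. A window was in the table for 28 of the 30 genes, all but ADSL and IMPDH2, and 8 of these 28 (28.6%) held the motif in at least 1 window: PPAT, PAICS, ATIC, AK4, DHODH, DCTPP1, DCK and NME1. Over all genes with a window the share was 8.78% (2396 of 27305), and over protein-coding genes it was 10.9% (1727 of 15843). PPAT and PAICS lie head to head on chromosome 4 and their windows overlap, so both counts rest on the same site at chr4:56435792-56435797. Counted from each gene's start, the site began at base 41 of PAICS and at base -182 of PPAT. Windows of 3 genes are printed 5′ to 3′ on the gene's strand with CACGTG in capitals, the first (chr4:56435502-56435801, plus strand) because PAICS had the largest averaged difference of the 30 genes, the second (chr2:215311809-215312108, plus strand) because ATIC had a pair of motifs, and the third (chr16:30429751-30430050, minus strand) because DCTPP1 held the motif but was not called.
PAICS: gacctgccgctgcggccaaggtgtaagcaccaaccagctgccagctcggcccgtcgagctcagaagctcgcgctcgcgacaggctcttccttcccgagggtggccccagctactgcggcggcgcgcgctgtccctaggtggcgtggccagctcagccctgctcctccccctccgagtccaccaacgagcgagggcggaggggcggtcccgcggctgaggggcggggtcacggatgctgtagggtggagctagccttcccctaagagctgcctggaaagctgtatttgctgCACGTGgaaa
ATIC: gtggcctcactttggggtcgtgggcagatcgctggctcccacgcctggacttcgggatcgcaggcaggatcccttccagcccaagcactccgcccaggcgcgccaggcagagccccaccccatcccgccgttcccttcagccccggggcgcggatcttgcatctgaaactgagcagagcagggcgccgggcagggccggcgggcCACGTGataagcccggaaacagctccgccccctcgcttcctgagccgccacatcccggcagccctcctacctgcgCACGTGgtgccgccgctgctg
DCTPP1: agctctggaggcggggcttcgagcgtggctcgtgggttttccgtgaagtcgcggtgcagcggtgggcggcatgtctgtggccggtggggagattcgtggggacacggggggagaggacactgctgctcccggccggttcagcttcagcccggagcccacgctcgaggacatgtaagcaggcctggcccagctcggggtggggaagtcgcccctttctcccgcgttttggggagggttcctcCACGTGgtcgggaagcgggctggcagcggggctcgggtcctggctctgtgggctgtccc
A match is a description of letters in a window and not a measured binding site. Windows follow RefSeq starts, which can differ from the gene positions of GENCODE 29 given below. The DCTPP1 window lies wholly inside the GENCODE 29 span of the gene (chr16:30423619-30430075), so its motif is intragenic by that annotation. The same holds for the DCK window with the motif (chr4:70993399-70993698) and for an AK4 window with it (chr1:65147603-65147902). The motifs of PAICS, ATIC and NME1 also lie inside those genes by GENCODE 29.

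Libraries held 24730502 to 53508548 counts. The share from mitochondrially encoded genes differed between the arms, with group means of 11.3% in DOX and 10.6% in UT libraries on day 12, 20.2% in DOX and 54.7% in UT on day 16, and 57.0% in DOX and 72.7% in UT on day 20. Values below are therefore CPM (counts scaled to a common library size) by TMM, which sets library sizes by the bulk of genes, and log2 fold changes are DOX over UT unless stated. MYC itself stood at 242 and 232 CPM in DOX against 126 and 121 CPM in UT libraries on day 12, 164 and 183 in DOX against 88.7 and 58.0 in UT on day 14 and 49.6 and 28.9 in DOX against 34.6 and 28.7 in UT on day 20, and its averaged log2 fold change was 0.83 (adjusted p = 4.3e-06, SE 0.11). All 8 progenitor markers were detected, at 10 or more counts, in every library. Their levels varied, and CD34 had the lowest count of them, with a range of 20 to 7451. The pluripotency genes POU5F1, NANOG and SOX2 were at 0 counts in 13, 8 and 19 of the 22 libraries. DPPA4, also on the pluripotency list, was present in every library, with 96 to 1667 counts. On the shared days 12 to 20, the 7 mast cell and eosinophil genes summed to a median of 5012 CPM in DOX (range 249.7 to 11560) and 17706 CPM in UT libraries (range 775 to 33110), and the 7 neutrophil genes to 1789 CPM in DOX (range 721 to 2084) and 3092 CPM in UT libraries (range 1213 to 3967). Median sums over the same 10 libraries of each arm were 973 CPM in DOX and 464 CPM in UT for erythroid genes. For megakaryocyte genes they were 1598 in DOX and 652 in UT. Monocyte and macrophage genes had 207 in DOX and 285 in UT, and endothelial genes 84.6 in DOX and 47.0 in UT. Erythroid and megakaryocyte sums were lower in DOX on days 12 and 14 and higher from day 16. On day 12 erythroid genes summed to 1492 and 1720 CPM in DOX against 1732 and 1909 in UT. Megakaryocyte genes stood at 2025 and 1984 CPM in DOX against 3355 and 3282 in UT that day. Endothelial sums were lower in DOX on day 12, overlapped between arms on day 14 and were higher from day 16. The part of these cell types and of the mitochondrial share in the results below was not tested. The second UT library of day 16 stood apart with 509 CPM of fibroblast collagen and decorin genes, against 10.1 to 35.9 CPM in the other 21 libraries. In bulk RNA, fewer cells of a type and less RNA per cell cannot be told apart.

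All 30 genes passed the filter on low counts, and the smallest count of any of them in a library was 71. Averaged over days 12 to 20, 25 of the 30 were higher in DOX than in UT libraries and 1, TK2, was lower (edgeR quasi-likelihood test, Benjamini-Hochberg adjusted p under 0.05 over 20115 genes). TK2 took the opposite sign, 0.19, when libraries were scaled by their total counts alone. Among all genes tested, 29.8% were called higher (6002 genes) and 23.0% lower (4633 genes) in this comparison, and scaling by total counts alone called 11581 higher and 1609 lower, with 29 of the 30 higher. The median log2 fold change was 0.54 over the 30 genes and 0.08 over all genes. On each of the 5 shared days both DOX libraries exceeded both UT libraries for 12 of the 30 genes (40%), a pattern that 6.89% of all genes showed: PRPS1, PRPS2, PPAT, GART, PFAS, PAICS, ADSL, ATIC, IMPDH2, GMPS, UMPS and TYMS. The opposite pattern, both DOX below both UT libraries on all 5 days, was met by 0 of the 30 and by 5.36% of all genes. Counted as a share of all counts outside the mitochondrial genes, the 30 genes together took 0.398% ± 0.0130 in DOX and 0.284% ± 5.21e-05 in UT libraries on day 14, and 0.213% ± 0.0217 in DOX and 0.115% ± 0.00696 in UT libraries on day 20 (SD, n = 2 each).

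**Figure D1:**
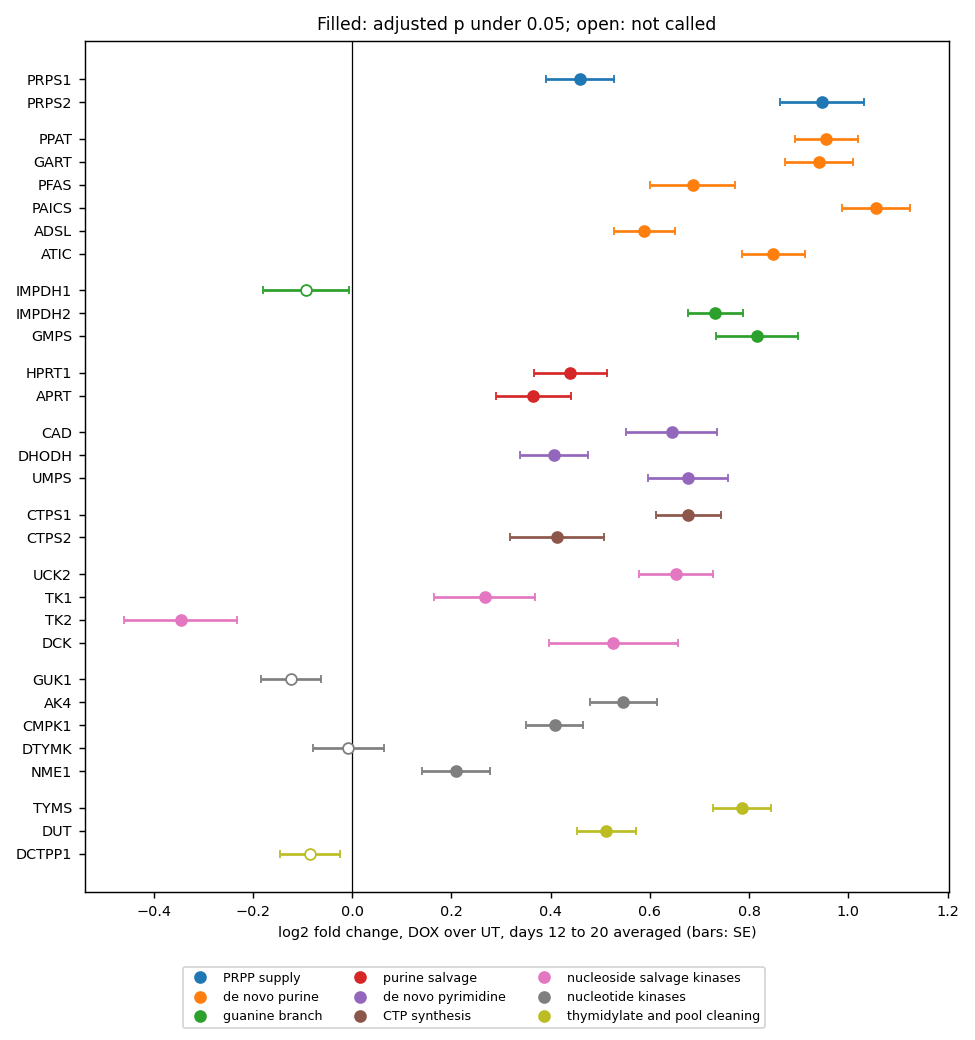
Log2 fold change of each of the 30 genes, DOX over UT averaged over days 12 to 20 (points; bars are standard errors), coloured by role and filled where the adjusted p was under 0.05. The 6 de novo purine genes lie between 0.59 and 1.06, all right of 0, while TK2 at -0.35 is the filled point left of 0 (0.19 with libraries scaled by total counts alone).

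Both PRPP synthetases rose. In the averaged comparison, rose and fell mean more and less RNA in DOX than in UT libraries, not a change over days. PRPS1 (ENSG00000147224.13, chrX:107628424-107651026, plus strand) and PRPS2 (ENSG00000101911.13, chrX:12791355-12824222, plus strand) make PRPP, the ribose donor of both de novo routes and of base salvage (positions are from GENCODE 29 on GRCh38, here and below). PRPS2 stood at 23.6 and 21.5 CPM in DOX against 17.5 and 18.3 CPM in UT libraries on day 12, 34.7 and 31.9 in DOX against 19.1 and 19.3 in UT on day 14 and 37.4 and 36.9 in DOX against 13.8 and 10.6 in UT on day 16. Later it stood at 21.5 and 18.1 CPM in DOX against 12.0 and 7.65 CPM in UT libraries on day 18 and 18.4 and 15.02 in DOX against 7.52 and 9.49 in UT on day 20. The arms did not overlap on any day, and the DOX libraries were highest on days 14 and 16 while the UT libraries declined after day 14. The averaged log2 fold change of PRPS2 was 0.95 (adjusted p = 3.6e-08, SE 0.09), a 1.93-fold higher level. PRPS1 had a median of 38.4 CPM (range 27.4 to 44.2) over the 10 DOX libraries and of 26.9 CPM (range 20.9 to 29.98) over the 10 UT libraries of the same days. Its averaged difference was 0.46 (adjusted p = 1.8e-05, SE 0.07), and its arms also stayed apart on every day.

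All genes listed for the de novo purine route had more RNA in DOX than in UT libraries, with 6 of 6 called higher. PPAT (ENSG00000128059.8, chr4:56393362-56435615, minus strand) commits PRPP to the route and is its regulated step. PPAT stood at 50.6 and 49.4 CPM in DOX against 34.3 and 32.9 CPM in UT libraries on day 12, 50.1 and 49.7 in DOX against 19.6 and 20.9 in UT on day 14 and 34.1 and 34.3 in DOX against 14.5 and 13.8 in UT on day 16. On the last days it stood at 21.3 and 23.6 CPM in DOX against 13.5 and 14.9 CPM in UT libraries on day 18 and 22.5 and 20.2 in DOX against 8.61 and 12.9 in UT on day 20. Both DOX libraries were above both UT libraries throughout, and the UT libraries declined from day 12 to day 16 while the DOX libraries of days 12 and 14 held nearly the same level. On average over the days, PPAT had a log2 fold change of 0.96 (adjusted p = 7.1e-10, SE 0.06).

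PAICS (ENSG00000128050.9, chr4:56435741-56464579, plus strand), a protein that carries consecutive carboxylase and ligase steps, had the largest averaged difference of the 30 genes. PAICS stood at 311 and 292 CPM in DOX against 214 and 216 CPM in UT libraries on day 12, 393 and 380.1 in DOX against 255 and 264 in UT on day 14 and 404 and 393 in DOX against 139.5 and 122 in UT on day 16. Towards the end of culture it was measured at 286 and 243 CPM in DOX against 90.4 and 114 CPM in UT libraries on day 18 and 198 and 168 in DOX against 66.0 and 89.8 in UT on day 20. Its DOX libraries exceeded its UT libraries on every day, by the widest margin from day 16 onward, and its averaged log2 fold change was 1.06 (adjusted p = 4.9e-10, SE 0.07), 2.08-fold. GART (ENSG00000159131.17, chr21:33503931-33543491, minus strand), which joins several activities of the route in 1 protein, had a median of 75.7 CPM (range 39.0 to 112) over the 10 DOX libraries and of 32.1 CPM (range 17.6 to 74.2) over the 10 UT libraries of the same days. GART rose by 0.94 (adjusted p = 2.6e-09, SE 0.07). ATIC (ENSG00000138363.15, chr2:215311817-215349773, plus strand) closes the ring to give IMP and had a median of 73.6 CPM (range 35.2 to 90.3) over the 10 DOX libraries and of 33.4 CPM (range 21.6 to 52.1) over the 10 UT libraries of the same days, a log2 fold change of 0.85 (adjusted p = 3.3e-09, SE 0.06). PFAS (ENSG00000178921.14, chr17:8247618-8270491, plus strand), the amidotransferase in the middle of the route, rose by 0.69 (adjusted p = 1.9e-06, SE 0.09). ADSL (ENSG00000239900.13, chr22:40346500-40390463, plus strand), which also acts in the adenine branch, rose by 0.59 (adjusted p = 2.1e-07, SE 0.06), the smallest change of the 6 genes. Part of the ADSL exons (18.9%) is shared on the same strand with AL022238.4, whose counts were not analysed here.

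**Figure D2:**
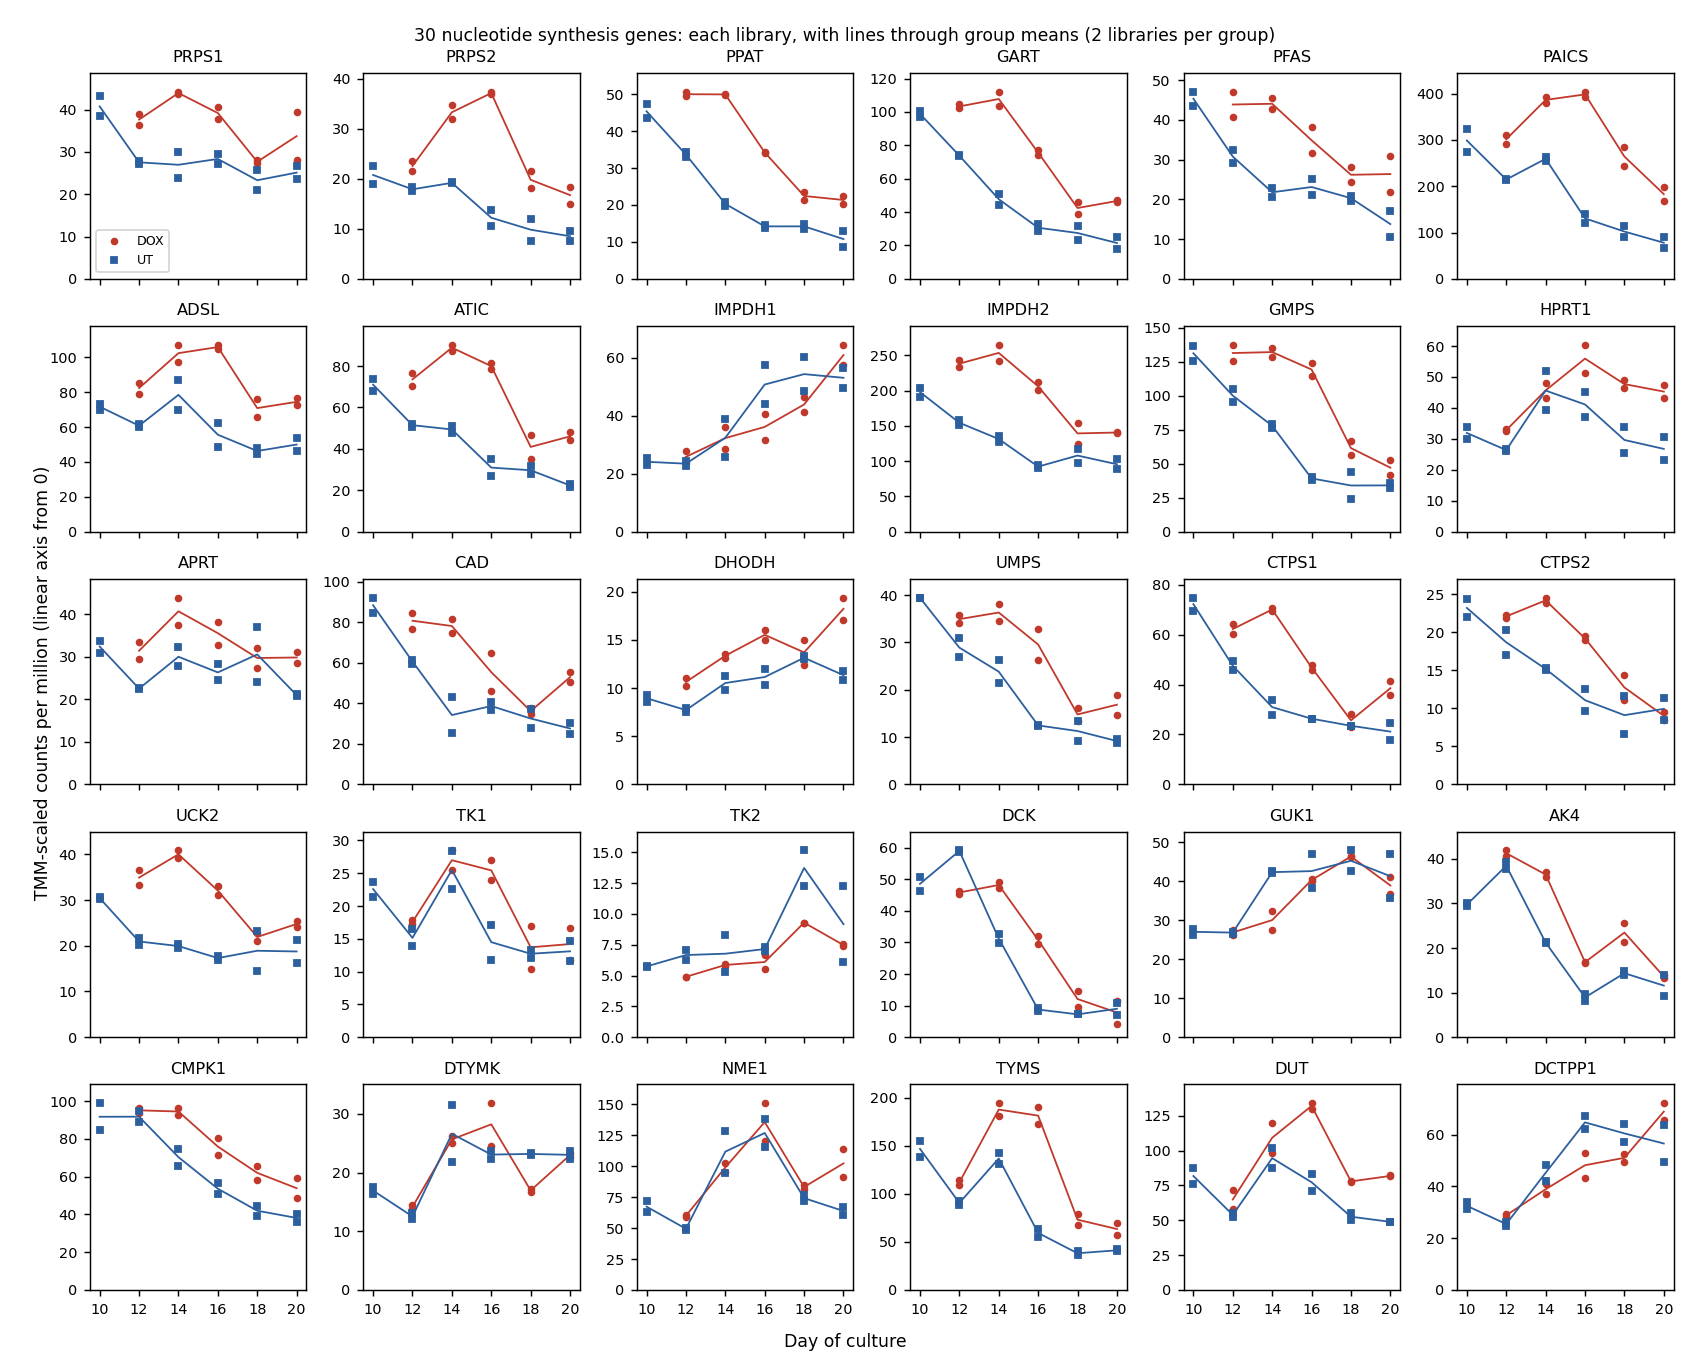
TMM-scaled CPM (linear axes from 0) of each of the 30 genes in every library against day of culture, DOX as red circles and UT as blue squares, with lines through the means of the 2 libraries per group. PAICS reaches 404 CPM in DOX libraries on day 16 and 139.5 CPM at most in UT libraries that day, whereas the arms of GUK1, DTYMK and IMPDH1 cross.

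The guanine branch split between its paralogues. IMP dehydrogenase, the rate-limiting step towards GMP, is encoded by IMPDH2 (ENSG00000178035.13, chr3:49024325-49029408, minus strand) and IMPDH1 (ENSG00000106348.18, chr7:128392277-128410252, minus strand). IMPDH2 stood at 243 and 234 CPM in DOX against 151 and 158 CPM in UT libraries on day 12, 265 and 242 in DOX against 136 and 127 in UT on day 14 and 212 and 200.3 in DOX against 93.8 and 90.5 in UT on day 16. From day 18 the values were 154 and 124 CPM in DOX against 97.9 and 118 CPM in UT libraries on day 18 and 139 and 142 in DOX against 88.2 and 103 in UT on day 20. The arms of IMPDH2 were apart on every day, and its averaged log2 fold change was 0.73 (adjusted p = 4.5e-09, SE 0.06). IMPDH1 stood at 27.9 and 23.7 CPM in DOX against 24.3 and 22.6 CPM in UT libraries on day 12, 36.0 and 28.6 in DOX against 39.0 and 25.8 in UT on day 14 and 40.7 and 31.6 in DOX against 57.7 and 43.9 in UT on day 16. In the later libraries it stood at 46.6 and 41.3 CPM in DOX against 60.2 and 48.6 CPM in UT libraries on day 18 and 64.6 and 57.4 in DOX against 56.6 and 49.7 in UT on day 20. IMPDH1 had DOX above UT libraries on 1 day, below them on 2 days and overlapping on the other two, and the averaged difference of -0.09 (adjusted p = 0.40, SE 0.09) was not called. GMPS (ENSG00000163655.16, chr3:155870536-155944026, plus strand), which aminates XMP to GMP, had a median of 119 CPM (range 41.5 to 138) over the 10 DOX libraries and of 41.9 CPM (range 24.3 to 105) over the 10 UT libraries of the same days. GMPS rose by 0.82 (adjusted p = 1.6e-07, SE 0.08), with its widest gap on day 16 (log2 fold change 1.61, SE 0.19).

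Both purine salvage genes rose. HPRT1 (ENSG00000165704.15, chrX:134460153-134520513, plus strand) returns hypoxanthine and guanine to the nucleotide pool. HPRT1 stood at 33.1 and 32.5 CPM in DOX against 26.1 and 26.6 CPM in UT libraries on day 12, 48.1 and 43.2 in DOX against 39.3 and 51.9 in UT on day 14 and 51.4 and 60.4 in DOX against 45.1 and 37.2 in UT on day 16. Afterwards it stood at 49.0 and 46.4 CPM in DOX against 25.4 and 33.8 CPM in UT libraries on day 18 and 43.2 and 47.4 in DOX against 23.0 and 30.4 in UT on day 20. Its arms overlapped on day 14 and were apart on the other days, and its averaged log2 fold change was 0.44 (adjusted p = 6.2e-05, SE 0.07). APRT (ENSG00000198931.11, chr16:88809339-88811944, minus strand), the adenine salvage enzyme, had a median of 32.5 CPM (range 27.3 to 43.9) over the 10 DOX libraries and of 24.2 CPM (range 20.7 to 37.1) over the 10 UT libraries of the same days, and rose by 0.37 (adjusted p = 0.00051, SE 0.08).

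All 3 genes of de novo pyrimidine synthesis had more RNA in DOX than in UT libraries. CAD (ENSG00000084774.14, chr2:27217390-27243943, plus strand) carries the opening activities in 1 chain and is a textbook MYC target. CAD stood at 84.9 and 76.8 CPM in DOX against 61.6 and 59.7 CPM in UT libraries on day 12, 74.8 and 81.6 in DOX against 43.1 and 25.4 in UT on day 14 and 64.9 and 45.9 in DOX against 40.5 and 36.9 in UT on day 16. Later it stood at 37.9 and 34.5 CPM in DOX against 37.3 and 27.8 CPM in UT libraries on day 18 and 50.6 and 55.3 in DOX against 25.0 and 30.2 in UT on day 20. The arms were apart on days 12, 14, 16 and 20 and touched on day 18. Averaged over the days, the log2 fold change of CAD was 0.64 (adjusted p = 9.2e-06, SE 0.09), and the day-18 value was 0.16 (SE 0.21). DHODH (ENSG00000102967.12, chr16:72008588-72027664, plus strand), the mitochondrial dehydrogenase of the route, had a median of 14.3 CPM (range 10.3 to 19.4) over the 10 DOX libraries and of 11.1 CPM (range 7.51 to 13.3) over the 10 UT libraries of the same days. It rose by 0.41 (adjusted p = 6.0e-05, SE 0.07). UMPS (ENSG00000114491.14, chr3:124730366-124749273, plus strand), which joins the ring to PRPP and decarboxylates the product, had a median of 29.6 CPM (range 13.4 to 38.2) over the 10 DOX libraries and of 12.9 CPM (range 8.72 to 31.0) over the 10 UT libraries of the same days. It rose by 0.68 (adjusted p = 1.2e-06, SE 0.08). CTP synthetase, which converts UTP to CTP, rose in both paralogues, CTPS1 (ENSG00000171793.16, chr1:40979335-41012565, plus strand) by 0.68 (adjusted p = 8.3e-08, SE 0.07) and CTPS2 (ENSG00000047230.15, chrX:16588003-16712936, minus strand) by 0.41 (adjusted p = 0.0012, SE 0.09).

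Nucleoside salvage kinases went different ways. UCK2 (ENSG00000143179.16, chr1:165827531-165911618, plus strand), which phosphorylates uridine and cytidine, had a median of 32.1 CPM (range 21.1 to 40.9) over the 10 DOX libraries and of 19.8 CPM (range 14.5 to 23.3) over the 10 UT libraries of the same days and rose by 0.65 (adjusted p = 7.3e-07, SE 0.07). DCK (ENSG00000156136.10, chr4:70992538-71030914, plus strand) phosphorylates deoxycytidine and activates several nucleoside drugs. DCK stood at 46.4 and 45.3 CPM in DOX against 59.2 and 58.8 CPM in UT libraries on day 12, 47.2 and 49.2 in DOX against 32.7 and 29.8 in UT on day 14 and 29.5 and 32.1 in DOX against 9.14 and 8.38 in UT on day 16. On the last days it stood at 14.7 and 9.47 CPM in DOX against 7.23 and 7.25 CPM in UT libraries on day 18 and 11.6 and 4.04 in DOX against 10.9 and 7.10 in UT on day 20. Its DOX libraries were below its UT libraries on day 12, above them on days 14, 16 and 18, and overlapping on day 20. The averaged change of 0.53 (adjusted p = 0.0021, SE 0.13) rested on day 16 and was 0.20 (adjusted p = 0.27) without that day. Part of the DCK exons (6.17%) is shared with MOB1B on the same strand.

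The thymidine kinases differed in sign. TK1 (ENSG00000167900.12, chr17:78174075-78187233, minus strand) is cytosolic and peaks in S phase of the cell cycle, and it had a median of 17.6 CPM (range 10.4 to 28.5) over the 10 DOX libraries and of 14.2 CPM (range 11.5 to 28.5) over the 10 UT libraries of the same days. Its log2 fold change was 0.27 (adjusted p = 0.034, SE 0.10), and the call was lost in 12 of the 35 alternatives tried. TK2 (ENSG00000166548.17, chr16:66508003-66552544, minus strand) is the mitochondrial enzyme. TK2 stood at 4.89 and 4.90 CPM in DOX against 7.09 and 6.23 CPM in UT libraries on day 12, 5.80 and 5.92 in DOX against 8.27 and 5.27 in UT on day 14 and 6.68 and 5.51 in DOX against 7.32 and 6.98 in UT on day 16. Towards the end of culture it was measured at 9.29 and 9.29 CPM in DOX against 15.2 and 12.3 CPM in UT libraries on day 18 and 7.38 and 7.56 in DOX against 12.3 and 6.07 in UT on day 20. The DOX libraries were below the UT libraries on 3 days and overlapped them on the other two. TK2 fell by 0.35 on the log2 scale (SE 0.11, adjusted p = 0.016), a call lost in 4 alternatives (among them those without the first UT library of day 14 or of day 20) and turned to 0.19 by scaling to total counts alone.

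Of the 5 nucleotide kinases, 3 rose, and GUK1 and DTYMK were not called. AK4 (ENSG00000162433.15, chr1:65147549-65232145, plus strand), an adenylate kinase of mitochondria, had a median of 23.5 CPM (range 13.3 to 41.9) over the 10 DOX libraries and of 14.4 CPM (range 8.20 to 39.3) over the 10 UT libraries of the same days and rose by 0.55 (adjusted p = 1.8e-06, SE 0.07). CMPK1 (ENSG00000162368.13, chr1:47333797-47378839, plus strand), which phosphorylates UMP and CMP, rose by 0.41 (adjusted p = 1.0e-05, SE 0.06). NME1 (ENSG00000239672.8, chr17:51153536-51162428, plus strand), a nucleoside diphosphate kinase, rose by 0.21 (adjusted p = 0.015, SE 0.07); without day 20 the value was 0.09 (adjusted p = 0.34), and 18.6% of its exons are shared with the NME1-NME2 readthrough gene. GUK1 (ENSG00000143774.17, chr1:228139962-228148984, plus strand), which phosphorylates GMP, had a median of 38.5 CPM (range 26.3 to 46.5) over the 10 DOX libraries and of 42.4 CPM (range 26.6 to 48.0) over the 10 UT libraries of the same days. Its difference was -0.12 (adjusted p = 0.094, SE 0.06), a value that was called lower with DESeq2 size factors (-0.17, adjusted p = 0.026), with the DESeq2 Wald test (-0.17, adjusted p = 0.012) and without the second UT library of day 20 (-0.15, adjusted p = 0.032), and that turned to 0.41 with scaling to total counts alone. DTYMK (ENSG00000168393.13, chr2:241675742-241686991, minus strand), the thymidylate kinase, had a difference of -0.01 (adjusted p = 0.99, SE 0.07).

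Thymidylate synthesis rose. TYMS (ENSG00000176890.16, chr18:657604-673578, plus strand) methylates dUMP to dTMP and is the target of fluorouracil. TYMS stood at 114 and 109 CPM in DOX against 92.7 and 88.2 CPM in UT libraries on day 12, 194 and 181 in DOX against 130.5 and 143 in UT on day 14 and 172 and 190.2 in DOX against 63.7 and 54.8 in UT on day 16. From day 18 the values were 78.7 and 67.4 CPM in DOX against 36.0 and 40.3 CPM in UT libraries on day 18 and 69.9 and 56.7 in DOX against 40.4 and 42.1 in UT on day 20. Its arms were apart on every day, with the widest gap on day 16, and TYMS rose by 0.79 (adjusted p = 2.8e-09, SE 0.06), 1.72-fold. DUT (ENSG00000128951.14, chr15:48331011-48343373, plus strand), which removes dUTP and supplies dUMP, had a median of 81.8 CPM (range 57.9 to 134) over the 10 DOX libraries and of 55.1 CPM (range 48.7 to 102) over the 10 UT libraries of the same days and rose by 0.51 (adjusted p = 9.5e-07, SE 0.06). DCTPP1 (ENSG00000179958.10, chr16:30423619-30430075, minus strand), which clears modified dCTP, behaved otherwise. DCTPP1 stood at 29.3 and 28.4 CPM in DOX against 26.2 and 24.7 CPM in UT libraries on day 12, 40.8 and 36.9 in DOX against 42.1 and 48.3 in UT on day 14 and 43.4 and 52.9 in DOX against 62.2 and 67.2 in UT on day 16. In the later libraries it stood at 52.6 and 49.4 CPM in DOX against 56.9 and 63.9 CPM in UT libraries on day 18 and 72.1 and 65.5 in DOX against 63.8 and 49.3 in UT on day 20. Under this scaling its DOX libraries were above UT on days 12 and 20 and below UT on the days between, and the averaged value of -0.08 (adjusted p = 0.26, SE 0.06) was not called. The strand setting of the counting was not given, and opposite-strand genes cover 39.1% of the TYMS exons (ENOSF1), 42.1% of the DCTPP1 exons (ZNF771) and 14.5% of the DUT exons (AC023355.1), so these counts may include reads of their neighbours. Smaller opposite-strand overlaps touch GART (SON, 3.55% of the exons) and UCK2 (TMCO1, 3.18%).

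The number of genes called varied over the days of culture. On day 12, 4 were higher in DOX libraries (ATIC, IMPDH2, PPAT and UCK2) and 0 lower, where 0.845% of all genes were called higher and 2.26% lower. These 4 calls were lost when any of the 4 libraries of day 12 was left out. On day 14, 18 were higher and 1, GUK1, was lower (all genes 15.3% higher and 11.7% lower). On day 16, 24 were higher and 1, DCTPP1, was lower (all genes 21.2% higher and 18.7% lower), though DCTPP1 was 0.50 with scaling to total counts alone. Without the second UT library of that day, the one with fibroblast transcripts, 16 were called higher. On day 18, 13 were higher and 1, DTYMK, was lower (all genes 19.8% higher and 16.0% lower), though DTYMK was 0.46 with scaling to total counts alone. On day 20, 18 were higher and 0 lower (all genes 15.9% higher and 11.9% lower).

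The median over the 30 genes was lowest on day 12 (0.32) and highest on day 16 (0.80), with 0.59 for day 14, 0.37 for day 18 and 0.57 for day 20, while the median over all genes stayed between -0.01 and 0.08. A positive difference on all 5 days was found in 21 genes, and 9 were called higher on at least 4 days: PRPS2, PPAT, GART, PAICS, ADSL, ATIC, IMPDH2, CMPK1 and TYMS. Neither count was taken over all genes, so they do not show how far the 30 genes stood out. IMPDH1 and TK2 were called on no single day. The largest value of any gene on a day was that of DCK on day 16, 1.82 (adjusted p = 7.1e-05, SE 0.29), followed by PRPS2, PAICS, GMPS and TYMS on the same day at 1.61, 1.61, 1.61 and 1.61. In pyrimidine synthesis, CAD (1.19 on day 14, 0.52 on day 16) and CTPS1 (1.18 on day 14, 0.83 on day 16) had their widest gaps on day 14.

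**Figure D3:**
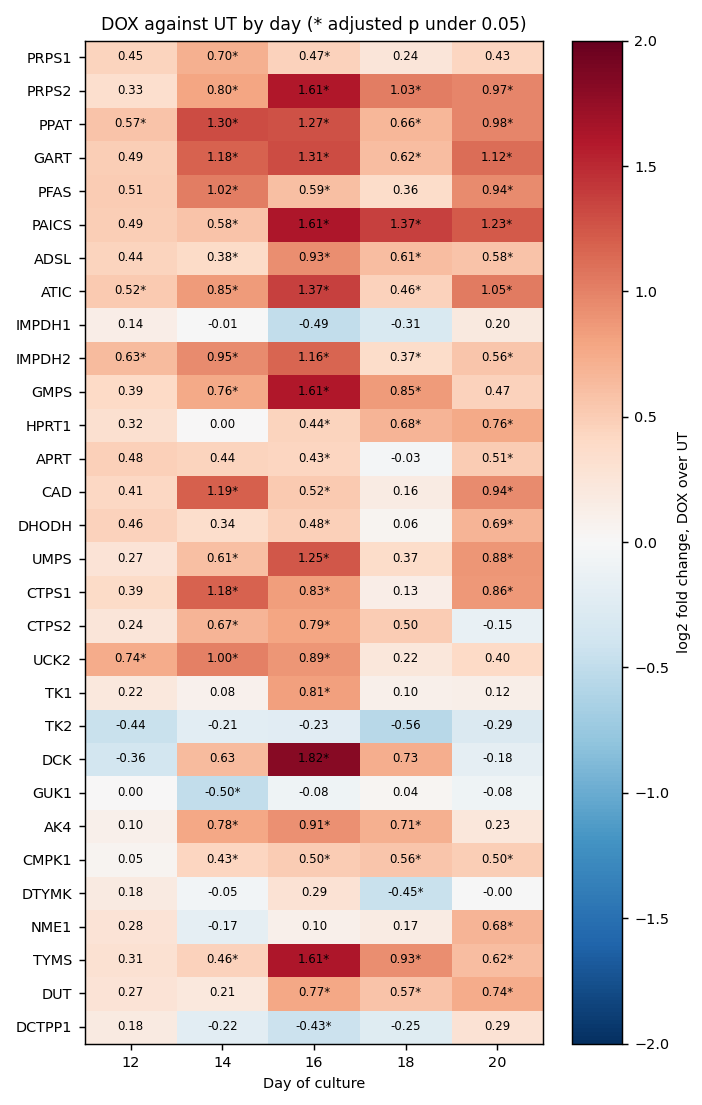
Log2 fold change, DOX over UT, of each of the 30 genes (vertical, grouped by role) on each shared day of culture (horizontal), printed in each cell and coloured from blue (lower in DOX) to red (higher in DOX); an asterisk marks an adjusted p under 0.05. Day 16 has the most asterisks, 24 in cells above 0, and day 12 the fewest, 4.

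The difference between the arms was also compared between days 12 and 14, when the arms had close mitochondrial shares, and days 16 to 20. On days 16 to 20, 25 genes were called higher and 0 lower (all genes 29.5% higher and 23.7% lower); on days 12 and 14, 19 were called higher and 0 lower (all genes 14.2% higher and 10.8% lower). The change itself was tested, and the difference was wider on the later days for 5 genes and narrower for 0, where 14.1% of all genes were called wider, that is more positive, and 10.8% more negative. The 5 were PAICS, whose averaged log2 fold change was 1.40 on days 16 to 20 and 0.53 on days 12 and 14, a change of 0.87 (adjusted p = 0.00014, SE 0.14); TYMS, with a change of 0.67 (adjusted p = 0.00036, SE 0.12); PRPS2, with 0.64 (adjusted p = 0.010, SE 0.17); HPRT1, with 0.47 (adjusted p = 0.029, SE 0.15); and DUT, with 0.46 (adjusted p = 0.010, SE 0.12). HPRT1 lost the call without mitochondrial genes (adjusted p = 0.062). The number of genes called rested on the scaling, with 30 called when libraries were scaled by their total counts alone, where the median over all genes was itself 1.04. It was 8 without the second DOX library of day 20 and 8 without the second UT library of day 18.

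In untreated culture most of these genes declined. Between UT day 20 and UT day 10, 22 of the 30 were lower and 5 higher (all genes 34.2% lower and 28.1% higher), with a median of -1.13 over the 30 genes and -0.24 over all genes. DCK had a log2 fold change of -2.44 (adjusted p = 1.4e-06, SE 0.31), with 10.9 and 7.10 CPM on UT day 20 against 46.4 and 50.8 CPM on UT day 10. GART stood at 17.6 and 25.3 CPM on UT day 20 against 97.2 and 101 CPM on UT day 10, which is a log2 difference of -2.20 (adjusted p = 1.5e-09, SE 0.16). For UMPS the values were 9.59 and 8.72 CPM on UT day 20 and 39.4 and 39.5 CPM on UT day 10 with a log2 fold change of -2.11 (adjusted p = 2.5e-08, SE 0.19). The 3 genes named had the lowest values of the 30, and the 6 de novo purine genes ranged from -2.20 to -0.52. The 5 that rose were IMPDH1 (1.14), DCTPP1 (0.80), TK2 (0.67), GUK1 (0.61) and DTYMK (0.44), all of which turned negative, between -1.74 and -1.04, with scaling to total counts alone. TK2 rested on single libraries, 12.3 and 6.07 CPM on UT day 20 against 5.75 and 5.73 CPM on UT day 10, with values of 0.05 (without the first UT library of day 20) to 1.07 when 1 library was left out, and the calls of TK2 and DTYMK were lost in several alternatives. HPRT1, DHODH and NME1 were not called. In the same comparison 16 of the 18 cycling genes described further on were lower, and mitochondrial genes took 72.7% of counts on UT day 20 against 8.92% on UT day 10; the part of either was not tested.

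On DOX day 20, 5 of the 6 de novo purine genes were also below the level of UT day 10, the exception being ADSL. In this comparison, which shares its UT day 10 libraries with the last one, 16 genes were lower and 7 higher (all genes 30.3% lower and 27.5% higher), with a median of -0.56 over the 30 genes and -0.07 over all genes. PAICS was at -0.71 in this comparison and at -1.94 for UT day 20, PPAT was at -1.09 for DOX day 20 and at -2.07 for UT day 20, and CAD was at -0.74 for DOX day 20 and at -1.68 for UT day 20. IMPDH1 (1.34), HPRT1 (0.51), DHODH (1.03), NME1 (0.60), DCTPP1 (1.08), GUK1 (0.53) and DTYMK (0.44) were higher on DOX day 20 than on UT day 10, but those other than IMPDH1 turned negative, between -0.82 and -0.17, with scaling to total counts alone, where IMPDH1 was 0.08 and not called. DCK was lower in this comparison too, at -2.62 (adjusted p = 5.1e-07, SE 0.30) on DOX day 20.

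**Figure D4:**
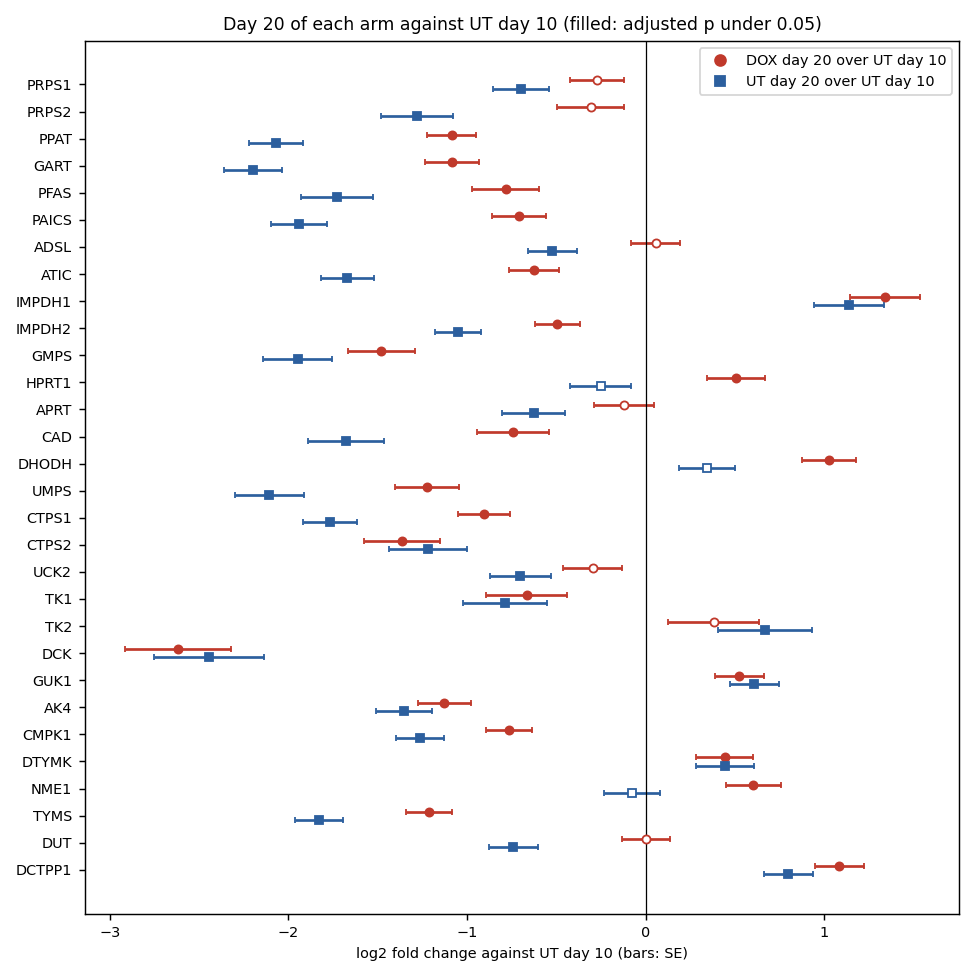
Log2 fold change against UT day 10 of each of the 30 genes for DOX day 20 (red circles) and UT day 20 (blue squares), with standard errors; filled symbols had an adjusted p under 0.05. Of the 30 genes, 16 are filled left of 0 for DOX day 20 and 22 for UT day 20; every filled symbol right of 0 except IMPDH1 for DOX day 20 lies left of 0 when libraries are scaled by total counts alone.

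The days of the highest level were counted for each arm. In DOX libraries 14 of the 30 genes had their highest group mean on day 14 and 7 on day 16, and in UT libraries 16 were highest on day 10 and 0 on day 20. UT libraries of day 10 were the start of the course, and no DOX group of that day was analysed here. The counts of highest days are therefore not comparable between the arms. They were also not taken over all genes, so they do not show how far the 30 genes stood out. AK4, CMPK1, TK1, NME1, GUK1 and TK2 were highest on the same day in both arms. PAICS differed, with its DOX libraries highest on day 16 and its UT libraries on day 10, at 275 and 323 CPM. IMPDH1 ran the other way in both arms, lowest on day 12 and highest on day 20 in DOX and on day 18 in UT libraries.

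For 4 pairs of paralogues the log2 ratio of their counts within a library was compared, a measure that does not depend on how libraries are scaled. Arm labels were permuted within days over all 7776 arrangements (exact two-sided permutation test, smallest possible p 0.00026), with p-values adjusted over the 4 pairs. IMPDH1 to IMPDH2 had a mean log2 ratio of -2.31 in DOX and -1.49 in UT libraries, a difference of -0.82 (adjusted p = 0.0010, exact permutation test), lower in DOX on 5 of 5 days. The ratio climbed through culture in both arms, with group means of -3.21 on day 12 and -1.21 on day 20 in DOX libraries, and of -2.72 on day 12 and -0.84 on day 20 in UT libraries. TK1 to TK2 averaged 1.505 in DOX and 0.92 in UT libraries, a difference of 0.59 (adjusted p = 0.0031, exact permutation test), higher in DOX on 5 of 5 days. PRPS1 to PRPS2 averaged 0.54 in DOX and 1.03 in UT libraries, a difference of -0.49 (adjusted p = 0.011, exact permutation test), lower in DOX on 4 of 5 days, and this call was lost without day 16 (-0.33, adjusted p = 0.064) or without day 20 (-0.47, adjusted p = 0.064). CTPS1 to CTPS2 averaged 1.48 in DOX and 1.23 in UT libraries, a difference of 0.26 and was not called (adjusted p = 0.12, exact permutation test). Without day 18, on which DOX was the lower arm, the CTPS difference was 0.42 (adjusted p = 0.019), and without the second UT library of that day it was 0.34 (adjusted p = 0.014).

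**Figure D5:**
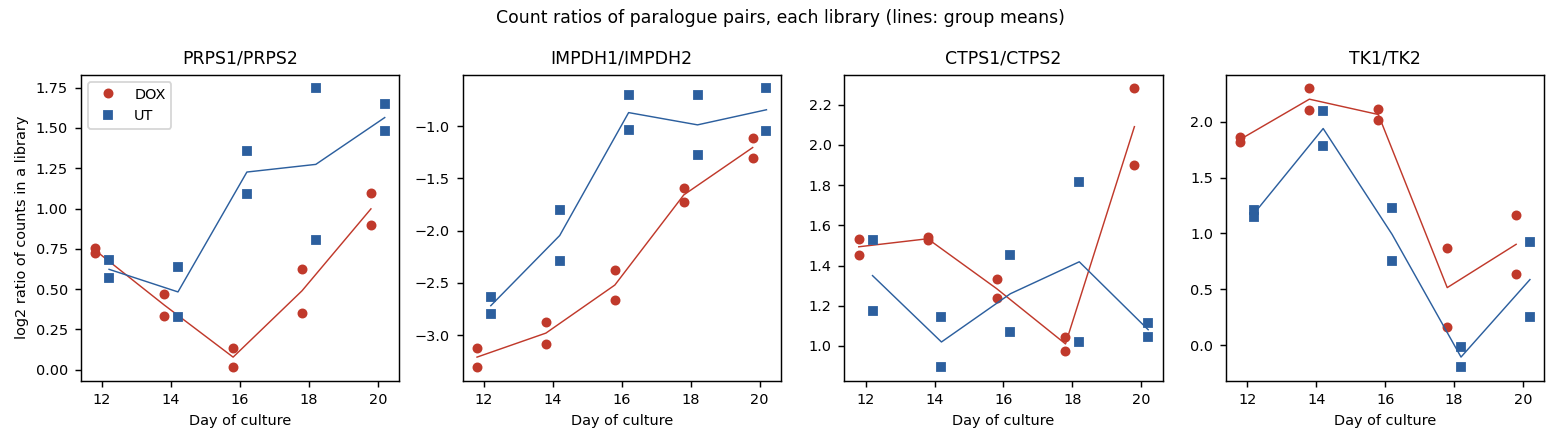
Log2 ratio of the counts of each paralogue pair in every library of days 12 to 20, DOX (red circles, left of each day) and UT (blue squares, right), with lines through group means. The IMPDH1/IMPDH2 ratio is lower in DOX on every day, -2.52 against -0.87 in UT on day 16, and the CTPS1/CTPS2 lines cross.

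Levels were compared between genes per kilobase of annotated exon. Medians and ranges were taken over all groups of an arm, so those of UT include day 10, which has no DOX group. They are therefore not comparable between the arms. IMPDH2 was the highest of the 30 in both arms, with a median of group means of 74.3 CPM per kilobase in DOX (range 50.2 to 91.4) and 43.1 in UT libraries (range 33.2 to 71.4). Next came TYMS, at 45.3 in DOX and 30.3 in UT, and PAICS, at 40.1 in DOX and 22.9 in UT. DCTPP1, at 30.4 in DOX and 32.2 in UT, ranked behind them in DOX libraries but ahead of TYMS and PAICS in UT libraries. TK2 was the lowest at 0.851 in DOX and 0.971 in UT libraries. The ranges over days of neighbouring genes in this order overlapped for TYMS, PAICS and DCTPP1, so their order is not fixed.

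Other genes of nucleotide handling, a list of reductase, breakdown, interconversion and transport genes, were called in both directions. Of 48 tested, 18 were higher and 17 lower in DOX libraries, with a median of 0.08, close to the 0.08 of all genes. Each of the 3 ribonucleotide reductase subunits, which make deoxynucleotides from ribonucleotides, was higher: RRM2 by 0.59 (adjusted p = 1.2e-06, SE 0.07), RRM1 by 0.37 (adjusted p = 3.4e-05, SE 0.06) and RRM2B by 0.19 (adjusted p = 0.035, SE 0.07). Among the largest increases were GMPR, which returns GMP to IMP, at 1.11 (adjusted p = 7.5e-08, SE 0.11), and ADSS2, the entry to the adenine branch, at 0.85 (adjusted p = 2.8e-08, SE 0.07). DCTD, which deaminates dCMP to dUMP, rose by 0.61 (adjusted p = 1.6e-06, SE 0.07). AK6, SLC29A3 and NT5M had values of 0.85, 0.79 and 0.72, all called.

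Of the same list, the 6 genes with the largest falls among those whose average log2 CPM reached 1 had the following values. SAMHD1, which cleaves dNTPs, stood at 71.9 and 67.2 CPM in DOX against 137 and 129 CPM in UT libraries on day 12 and 200.2 and 188 in DOX against 591 and 582 in UT on day 20, against 38.5 and 33.9 CPM on UT day 10. The arms were apart on both days shown, and the averaged log2 fold change was -1.43 (adjusted p = 3.7e-12, SE 0.06). ENTPD1, a cell-surface enzyme that hydrolyses ATP, was at -1.63 (adjusted p = 5.0e-12, SE 0.07), and TYMP, thymidine phosphorylase, at -1.38 (adjusted p = 2.6e-09, SE 0.10). CDA, cytidine deaminase, was at -1.43 (adjusted p = 1.7e-06, SE 0.18), AMPD3, an AMP deaminase, at -1.02 (adjusted p = 1.5e-09, SE 0.07), and UPB1, which ends pyrimidine breakdown, at -0.98 (adjusted p = 0.00077, SE 0.21).

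Genes of DNA replication and mitosis are given beside these results because several members, TYMS, TK1 and DUT among them, are used by cycling cells. Of 18 cycling genes, 13 were higher and 1, TOP2A, was lower in DOX libraries, with a median of 0.28. TOP2A was at -0.46 (adjusted p = 9.9e-05, SE 0.08). Their summed level on days 12 to 20 was 1282 to 2276 CPM (median 1766) in DOX and 1411 to 2330 CPM (median 1598) in UT libraries. The arms overlapped over the pooled days but were apart on each single day. DOX libraries were above UT on days 12, 14 and 16 (1784 and 1865 CPM in DOX against 1593 and 1603 in UT on day 16). They were below UT on days 18 and 20 (1734 and 1815 CPM in DOX against 1881 and 2330 in UT on day 20). The median log2 fold change of the 18 genes was 0.15 for day 12, 0.54 for days 14 and 16 alike, -0.02 for day 18 and 0.24 for day 20. Despite its lower sum in DOX, day 20 had 15 of the 18 genes above 0, with 5 called higher and 1 lower. On day 18, 5 were called higher and 5 lower. On that day 13 of the 30 nucleotide genes were called higher and 1 lower, and over all genes 19.8% were called higher and 16.0% lower. The part of cycling in the differences above was not tested.

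The CACGTG windows were also set beside the calls. Among the 28 genes with a promoter window, 7 of the 8 with CACGTG and 16 of the 20 without it were called higher in the averaged comparison. Over protein-coding genes with a window that were tested, 39.8% of those with the motif (563 of 1415) and 36.0% of those without it (3668 of 10186) were called higher. The exception among the 8 was DCTPP1. Its window lies inside the gene by GENCODE 29, but so do windows with the motif of DCK and AK4, which were called higher. Nothing follows from the absence of these letters about binding of any factor.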

How the data were processed

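PolyA-selected RNA of 22 libraries in 11 groups of arm and day was measured. Per the submitters' processing notes, reads went through Trim Galore 0.6.5, STAR and Salmon on hg38; the annotation release and strand setting are not given in the sources used here, nor are filters. The authors deposited expected counts (estimated reads per gene, not normalised; 88.3% whole within 1e-6), which were rounded here. Salmon divides reads shared by near-identical copies, so paralogue counts depend on that estimate.

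Of 60240 genes, filterByExpr (edgeR 4.0.16, minimum count 10) kept 20115. Libraries of 24730502 to 53508548 counts were scaled by TMM (factors 0.324 to 1.58), and 1 edgeR quasi-likelihood fit with 11 group coefficients (11 residual degrees of freedom) gave all comparisons. The threshold for a call was 0.05 after Benjamini-Hochberg adjustment over all genes, and the test was tried on simulated data. Paralogue ratios (pseudocount 0.5) used an exact permutation test within days. Promoter windows came from RefSeq (GRCh38.p14), positions and exon lengths from GENCODE 29.

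All 30 members could be named, with MYC; of the other nucleotide genes, the 3 reductase subunits and up to 6 called higher and 6 lower by size at an average log2 CPM of at least 1; of the marker and cycling genes, those at 0 counts and up to 3 more. Members and lists were chosen with earlier results of these data known. Alternatives were other scalings (DESeq2 1.42.0 size factors, total counts), no low-count filter, DESeq2, limma 3.58.1 voom, mitochondrial genes removed, a replicate block and leaving out libraries or days.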

Additional observations from a re-analysis of the deposited data

Results flagged for a closer look

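For 5 genes the difference between DOX and UT libraries was wider, by the test of the change itself, on days 16 to 20 than on days 12 and 14. That is 5 of 30, where 14.1% of all genes were called in the same direction, a share near that of the members. On the log2 scale (edgeR quasi-likelihood test, adjusted over all genes) the change was 0.87 for PAICS, 0.67 for TYMS, 0.64 for PRPS2, 0.47 for HPRT1 and 0.46 for DUT. From day 16 onward mitochondrial genes took 20.2% to 57.0% of counts in the means of DOX groups and 54.7% to 72.7% in those of UT groups; the part of that share was not tested. PAICS, TYMS, PRPS2 and DUT kept the call with any 1 library left out, whereas HPRT1 lost it in 8 of these refits.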

How the results depend on the processing

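The same replicate numbers did not mark shared deviations (correlations of 0.03 to 0.101 between DOX and UT libraries of a day, and over 0.1 in 5 of 55 pairs of groups), and with a replicate block the members called higher were 25 in the averaged comparison and 19 on day 14, and no count of members called moved by over 1.5 times, though over all genes the block called 313 higher on day 12, against 170 without it. Scaling to total counts alone moved the averaged median of all genes to 0.60 and the share of calls that were higher to 87.8%, against 0.08 and 56.4% with TMM. Under it members called higher numbered 0 for day 12, 29 for day 18 and 28 for day 20, against 63, 10801 and 10657 of all genes. The change between early and late days was called in 30 members, and over all genes it was called more positive in 12548 and more negative in 184. On DOX day 20, 27 members and 11948 of all genes were lower than on UT day 10. This scaling also turned the averaged values of IMPDH1 (0.45), GUK1 (0.41), DCTPP1 (0.45), DTYMK (0.53) and TK2 (0.19), DCTPP1 on day 16 (0.50) and DTYMK on day 18 (0.46). For UT day 20 against UT day 10 it turned IMPDH1 (-1.04), GUK1 (-1.56), DCTPP1 (-1.37), DTYMK (-1.74) and TK2 (-1.49), and for DOX day 20 against UT day 10 HPRT1 (-0.76), GUK1 (-0.75), DHODH (-0.23), DCTPP1 (-0.17), DTYMK (-0.82) and NME1 (-0.67). Day 12 gave 8 members with DESeq2, 11 with limma-voom and 0 without mitochondrial genes, against 435, 642 and 28 of all genes called higher. Total counts without mitochondrial genes, an alternative chosen after seeing the data, gave 0 on day 12, 11 on days 12 and 14 and 15 for the change. Over all genes it called 18 higher on day 12, 1343 higher on days 12 and 14, and 4116 more positive and 778 more negative for the change. Leaving out 1 library at a time gave 0 to 6 members on day 12, 16 to 24 on day 16, 4 to 8 for the change and 24 to 25 in the averaged comparison. The PRPS ratio difference was -0.33 without day 16 and -0.47 without day 20, and that of CTPS 0.42 without day 18 and 0.18 to 0.34 without 1 library. The cause of these shifts was not tested. Of the 25 members called higher in the averaged comparison, 22 kept the call in all 35 alternatives and TK1, DCK and NME1 did not.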
